A study of Homo sapiens with 6 samples.

Results

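Gene expression after an siRNA against DKK2 was compared with that after a control siRNA in A673 and SK-N-MC, a pair of established Ewing sarcoma cell lines. The comparison used 4 of the series' 6 arrays: within each line, the array of cells given the DKK2 siRNA (siDKK2) was set against the array of cells given a control siRNA that silences no gene. The other 2 arrays, 1 per line, came from cells given an siRNA against ITM2A (siITM2A), which the study used as an independent knock-down. The labels number that siRNA differently in A673 and SK-N-MC, so the lines may not have received the same ITM2A siRNA. The DKK2 siRNA carries the same number in both lines, so no other DKK2 siRNA was compared. Both lines were grown in RPMI medium with fetal bovine serum, and every culture, controls included, carried an siRNA. Each line is a single established culture, and no siRNA dose or time after transfection is used here. All values below are on the log2 scale, on which a difference of -1 is a 2-fold lower level.

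DKK2 is a secreted protein of the Dickkopf family. Dickkopf proteins bind the Wnt co-receptors LRP5 and LRP6 and so modulate signalling from Frizzled receptors through beta-catenin to target genes such as AXIN2 and SP5; DKK2 can inhibit or promote this signalling depending on the cell. Ewing sarcoma arises in bone or soft tissue, its cells carry a fusion oncogene of EWSR1 and an ETS family member, and the series title ties DKK2 to bone destruction, invasion and metastasis. Interferon-stimulated genes were also lower on the siDKK2 arrays, and the account below concerns the 18226 of 18417 measured genes outside an interferon list of 191 measured genes.

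The labelled cell type was checked first. CD99, the surface protein used to diagnose Ewing sarcoma, lay between 9.79 and 10.7 on all 6 arrays, and 7 of 9 Ewing line markers lay at or above the median gene level of 4.04 on every array; GLI1 was low, at 2.68 to 3.35. Of 15 markers of leukocytes, endothelium, epithelium and red cells, 12 lay under that median on every array, among them PTPRC, the common leukocyte antigen, at 1.90 to 2.09. The others lay above it on every array: the epithelial keratins KRT18 at 9.09 to 9.76 and KRT8 at 4.71 to 5.86, and CD68 at 4.06 to 6.41. The summed level of the 15 markers was 52.1 with control and 49.3 with siDKK2 in A673, and 48.9 and 48.5 in SK-N-MC. The median over genes differed by -0.08 between siDKK2 and control in A673 and by 0.01 in SK-N-MC. In such bulk samples, fewer cells of a kind and less RNA per cell cannot be told apart.

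The targeted gene was lower in both lines. The log2 level of DKK2 was 8.64 with control, 7.73 with siDKK2 and 9.13 with siITM2A in A673, and 8.01, 6.50 and 7.94 in SK-N-MC. In each line the siDKK2 array was the lowest of the 3, and both siDKK2 values lay below all 4 other values; 53.02% of the control level was left in A673 cells and 35.1% was left in SK-N-MC cells. The fitted difference was -1.21 ± 0.17 (SE, n = 2 lines), which did not pass the threshold of 0.05 (limma, adjusted p = 0.209). With 1 array per line and siRNA, the 2 lines are the only replicates and there is no test within a line. The SE and p of the fit use the spread of all 6 arrays, siITM2A included, drawn toward the spread typical of all genes. They therefore do not measure only how evenly the 2 lines responded to siDKK2. An exact two-sided test by sign flips of 2 pairs cannot go below p = 0.5. Over all 18417 genes 2 passed, or 0.0109%, and 1598 had an unadjusted p under 0.05, or 8.68% (5.71% lower and 2.97% higher).

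Both genes past the threshold fell, by nearly the same amount in either line. ANKRD46 encodes an ankyrin repeat protein, and its log2 level was 5.35 with control, 3.59 with siDKK2 and 5.36 with siITM2A in A673, and 5.49, 3.51 and 5.48 in SK-N-MC. Its 4 values without siDKK2 lay within a narrow band, and both siDKK2 values lay far below it. ANKRD46 fell by 1.87 ± 0.13 on the log2 scale (SE, n = 2 lines; limma, adjusted p = 0.00467). ATP6V1D encodes subunit D of the vacuolar proton pump, part of the rotor that couples ATP hydrolysis to the pumping of protons into lysosomes and endosomes. Its log2 level was 7.01 with control, 5.20 with siDKK2 and 6.83 with siITM2A in A673, and 6.46, 4.70 and 6.16 in SK-N-MC. Again both siDKK2 values lay below all the others, and ATP6V1D fell by 1.78 ± 0.13 (SE, n = 2 lines; limma, adjusted p = 0.00467). In A673 and SK-N-MC, 29.4% and 25.4% of the control level was left for ANKRD46 and 28.5% and 29.6% for ATP6V1D, less than for DKK2 itself in each line. By the labels both lines carried the same DKK2 siRNA, and an effect of its own sequence was not tested. The calls rest on the evenness of all 6 arrays: without the A673 siDKK2 array the adjusted p was 0.0570 for ANKRD46 and 0.0584 for ATP6V1D, and without either siITM2A array it was 0.0801 for both. IRF9, a subunit of the transcription factor that interferon activates, did not pass (limma, adjusted p = 0.0566); it stood at 6.40 with control, 4.47 with siDKK2 and 5.96 with siITM2A in A673, and at 5.00, 3.71 and 4.82 in SK-N-MC.

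A difference of at least 2-fold downward in both lines was found for 3 genes outside the interferon list (0.0165% of 18226) and upward for 0; beside ANKRD46 and ATP6V1D the third was CARNMT1. CARNMT1 encodes carnosine N-methyltransferase, which makes anserine. Its log2 level was 5.54 with control, 4.48 with siDKK2 and 5.30 with siITM2A in A673, and 6.15, 4.63 and 6.26 in SK-N-MC. The siDKK2 values were the lowest of each line and below both lines' other values, but the difference of -1.29 ± 0.19 (SE, n = 2 lines) did not pass (limma, adjusted p = 0.209). At 1.5-fold, 55 genes were lower in both lines (0.302%) and 11 were higher in both (0.0604%). Of all 18417 genes, 31.6% were lower in both lines by any amount and 23.2% were higher in both.

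**Figure D1:**
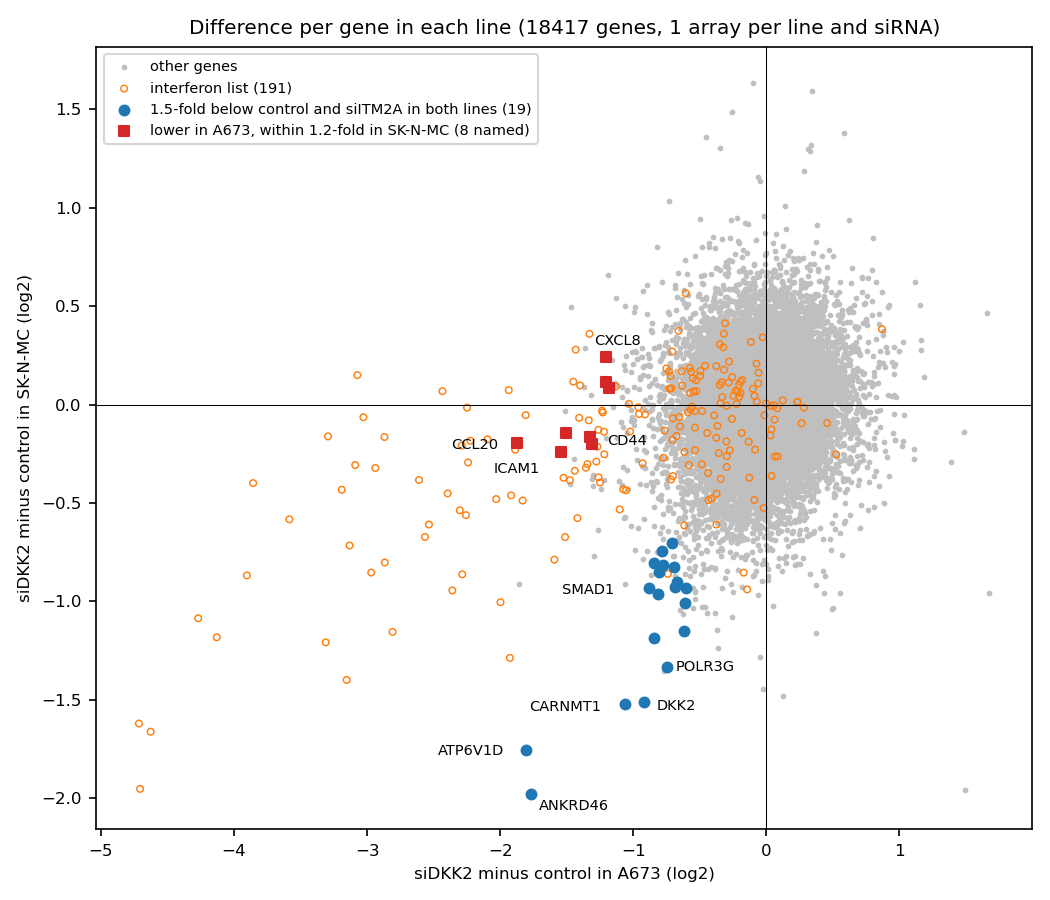
Each point is a gene, with its siDKK2 minus control difference (log2) in A673 on the horizontal axis and in SK-N-MC on the vertical axis. Blue points are 19 genes outside the interferon list that lay at least 1.5-fold below both other arrays in both lines, red squares are 8 genes that were at least 2-fold lower in A673 and within 1.2-fold in SK-N-MC, and open orange circles are the 191 interferon genes, most of which lie to the left.

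ATP6V1D was the 1 gene of its complex past the threshold. The pump has a V1 sector in the cytosol, which hydrolyses ATP, and a V0 sector in the membrane, which carries the protons. Of 23 measured pump genes 1, ATP6V1D, passed the threshold, and the median difference over the 23 was 0.01 for A673 and -0.02 for SK-N-MC, beside -0.04 and -0.01 over all genes. ATP6V1A, the catalytic subunit of V1, stood at 6.68 with control and 7.10 with siDKK2 in A673 and at 6.57 and 7.06 in SK-N-MC, so its siDKK2 values were the higher in both lines. ATP6V1C1, a stalk subunit of V1, differed by -0.29 in A673 and by -0.50 in SK-N-MC. In the V0 sector ATP6V0A1 differed by -0.36 and -0.18, and the osteoclast-type subunit TCIRG1 by -0.16 and 0.50. Of 24 genes of lysosomes and autophagy 0 passed by limma, and the medians were -0.05 and -0.04. At an unadjusted p under 0.05, 3 were lower and 0 higher, or 12.5% beside 8.68% of all genes.

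Because siDKK2 and siITM2A were compared with the same control arrays, genes were also sought whose siDKK2 value lay at least 1.5-fold below both the control and the siITM2A array of its line, in both lines. There were 19 such genes outside the interferon list (0.104% of 18226), and 1 gene lay above both in the same way (0.00549%). These 19 were chosen by these values, which are given as a description. They were ANKRD46, ATP6V1D, DKK2, SMAD1, TMEM87B, CARNMT1, POLR3G, FNDC3A, ADAM9, BNIP2, DYNLT3, SPRYD7, SLC35F5, ERO1A, SPCS3, GOLGA4, PIK3R3, SHCBP1 and CENPC. At the border, CENPC and SHCBP1 had smallest margins of -0.59 and -0.60, and SLC2A3 and OIP5 fell just outside at -0.57 and -0.56. The median difference of the 19 from control was -0.78 for A673 and -0.93 for SK-N-MC with siDKK2, and 0.10 and -0.08 with siITM2A. By the same rule turned to the other siRNA, 7 of 18417 genes lay below control and siDKK2 with siITM2A (0.038%) and 4 above both (0.0217%). With siITM2A of SK-N-MC left out, the 19 became 34.

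Among the 19 was a carrier of bone morphogenetic protein (BMP) signals. SMAD1 is phosphorylated by BMP receptors and moves to the nucleus to regulate genes such as ID1 and ID3. Its log2 level was 5.28 with control, 4.40 with siDKK2 and 5.38 with siITM2A in A673, and 5.37, 4.43 and 5.40 in SK-N-MC. Both siDKK2 values were nearly a full unit below the 4 others, which lay close together, and the fitted difference was -0.91 ± 0.13 (SE, n = 2 lines; limma, adjusted p = 0.209). BMPR2, the type II BMP receptor, stood at 6.26 with control, 5.33 with siDKK2 and 5.88 with siITM2A in A673, and at 5.99, 5.21 and 5.67 in SK-N-MC. The siITM2A values of BMPR2 lay between those of siDKK2 and control in both lines, and the groups of siDKK2 and other arrays did not overlap. The BMP target ID3 differed by -0.15 in A673 and by -0.77 in SK-N-MC, and ID1 by -0.41 and -0.10.

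Also among the 19, ADAM9, a membrane-anchored metalloproteinase that sheds surface proteins, stood at 8.48 with control, 7.71 with siDKK2 and 8.69 with siITM2A in A673, and at 7.05, 6.23 and 6.96 in SK-N-MC. ADAM9 was lowest with siDKK2 in each line, but the lines differed in level, so that the A673 siDKK2 value lay above all SK-N-MC values. ERO1A, which reoxidises protein disulphide isomerase in the endoplasmic reticulum, differed by -0.61 and -1.01, and SPCS3, a subunit of the signal peptidase complex, by -0.78 and -0.75. The Golgi proteins GOLGA4, a tether of the trans-Golgi network, and TMEM87B differed by -0.69 and -0.83 and by -0.84 and -1.19. SLC35F5, a member of a solute carrier family, differed by -0.67 and -0.90 on the probe set used, but its second probe set differed by -0.31 and 0.82, so its direction is uncertain in SK-N-MC.

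The others among the 19 have varied roles. POLR3G, a subunit of RNA polymerase III, stood at 5.13 with control, 4.38 with siDKK2 and 5.33 with siITM2A in A673, and at 6.28, 4.95 and 6.36 in SK-N-MC. Its siDKK2 value was the lowest in each line by more in SK-N-MC than in A673. CENPC, which anchors the kinetochore to the centromere, differed by -0.81 and -0.85, and SHCBP1, a binding partner of the adaptor SHC1, by -0.62 and -1.15. PIK3R3, a regulatory subunit of phosphoinositide 3-kinase, differed by -0.60 and -0.93, and the dynein light chain DYNLT3 by -0.71 and -0.70. BNIP2, FNDC3A and SPRYD7 differed by -0.69 to -0.85 in A673 and by -0.81 to -0.96 in SK-N-MC. Apart from ANKRD46 and ATP6V1D, none of the 19 passed the threshold by limma, with adjusted p from 0.209 to 0.288.

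**Figure D2:**
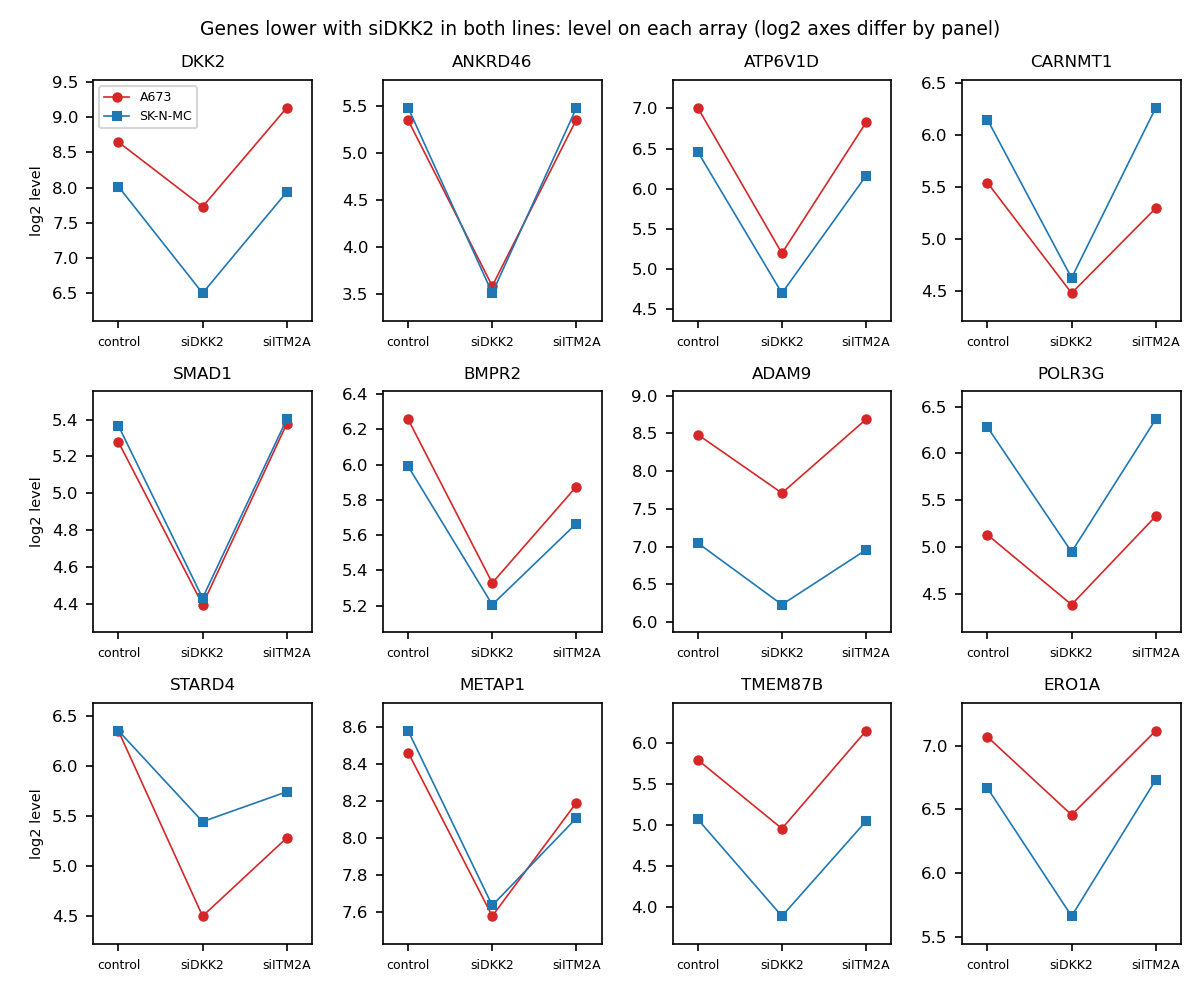
Log2 level on each of the 6 arrays for 12 genes that were lower with siDKK2 in both lines, with A673 as red circles and SK-N-MC as blue squares; lines join the 3 arrays of a cell line, and each panel has its own vertical axis. The siDKK2 array is the lowest of its line in every panel, while the siITM2A array returns to about the control level for ANKRD46 and SMAD1 and lies between siDKK2 and control for STARD4, BMPR2 and METAP1.

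For STARD4, METAP1 and PHTF2, also lower in both lines, the siITM2A arrays stood below control as well, and for SLC2A3 the siITM2A array did so in A673 alone. STARD4, which carries cholesterol between membranes, was 6.35 with control, 4.50 with siDKK2 and 5.28 with siITM2A in A673, and 6.36, 5.44 and 5.74 in SK-N-MC. The siDKK2 value of STARD4 was the lowest of each line, with siITM2A between it and the control, and the fitted difference was -1.39 ± 0.21 (SE, n = 2 lines; limma, adjusted p = 0.209). METAP1, which removes the initiator methionine from new proteins, differed by -0.88 and -0.94 with siDKK2 and by -0.27 and -0.47 with siITM2A. PHTF2 differed by -0.86 and -0.87 with siDKK2 and by -0.57 and -0.36 with siITM2A. SLC2A3, the glucose transporter GLUT3, differed by -1.30 and -0.77 with siDKK2 and by -0.73 and 0.05 with siITM2A.

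STARD4 had the largest difference of the sterol list in both lines. Of 26 measured genes of sterol synthesis and uptake 0 passed by limma. At an unadjusted p under 0.05, 4 were lower and 1 higher, or 19.2% beside 8.68% of all genes. The list's medians were -0.11 for A673 and -0.05 for SK-N-MC, or -0.03 and -0.06 with each array's median subtracted. HMGCS1, which makes the substrate of HMG-CoA reductase, differed by -0.32 and -0.51. CYP51A1, the lanosterol demethylase, differed by -0.39 and -0.28 on the probe set used. The second probe set of CYP51A1 differed by -0.43 and 0.17, so its direction is uncertain in SK-N-MC. NPC2, which moves cholesterol out of lysosomes, differed by 0.42 and 0.28.

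DICER1, the nuclease that cuts microRNA precursors, belongs to the list of RNA interference machinery. Its log2 level was 7.60 with control, 6.95 with siDKK2 and 7.23 with siITM2A in A673, and 8.24, 7.19 and 7.40 in SK-N-MC. It was lowest with siDKK2 in each line, with siITM2A between, and DICER1 was the 1 of 15 such genes at least 1.5-fold lower in both lines. The list's medians were -0.13 and -0.01, and 0 of 15 passed by limma. At an unadjusted p under 0.05, 1 was lower and 0 higher, or 6.67% beside 8.68% of all genes.

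Higher genes were fewer and their differences smaller. Among genes at or above the median level, the 15 with the highest differences in both lines lay 0.53 to 1.12 above control in A673 and 0.53 to 1.38 in SK-N-MC. None of these 15 passed, with adjusted p from 0.213 to 0.359 (limma). GXYLT2, an enzyme that adds xylose to Notch receptors, stood at 5.14 with control, 5.94 with siDKK2 and 5.34 with siITM2A in A673, and at 4.58, 5.26 and 4.71 in SK-N-MC. In both lines its siDKK2 value was the highest of the 3, while the lines overlapped. IGFBP2, which binds insulin-like growth factors outside the cell, stood at 8.03 with control, 8.89 with siDKK2 and 8.30 with siITM2A in A673, and at 7.65, 8.23 and 7.91 in SK-N-MC. IGFBP2 too was highest with siDKK2 in each line, with siITM2A a little above control.

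The rest of the 15 did not share a list. The protocadherin PCDH7 differed by 0.72 and 0.64, the secreted protease-like PRSS35 by 1.12 and 0.62, and the carbonic anhydrase-related CA11 by 0.64 and 0.62. The mitochondrial complex III subunit UQCRH differed by 0.76 and 0.55, the beta-1 adrenergic receptor ADRB1 by 0.55 and 0.62 and SSBP2, a DNA-binding cofactor, by 0.53 in both lines. With siITM2A these genes stood above control too, PRSS35 by 1.04 and 0.41, PCDH7 by 0.55 and 0.40, UQCRH by 0.28 and 0.36, ADRB1 by 0.31 and 0.38, CA11 by 0.20 and 0.38, and SSBP2 by 0.04 and 0.09. VPS4B, an ATPase of membrane scission, differed by 0.72 and 0.57 with siDKK2 and 0.94 and 0.69 with siITM2A, and CD248, a surface glycoprotein, by 0.55 and 0.57 with siDKK2 and 0.75 and 0.56 with siITM2A. SMIM15 differed by 0.59 and 1.38 with siDKK2 and 0.74 and 1.25 with siITM2A, and the neuropeptide gene NPW by 0.64 and 0.69 with siDKK2 and 0.80 and 0.20 with siITM2A. C8orf82 differed by 0.82 and 0.62 with siDKK2 and 0.54 and 0.13 with siITM2A. SSU72, a phosphatase of RNA polymerase II, differed by 0.80 and 0.85 on the probe set used and by 0.11 and 0.18 on its second. IGKC, an immunoglobulin gene and the 1 gene above both other arrays, differed by 0.77 and 0.64, but its 12 other probe sets lay between -0.61 and -0.05 in A673, so it is uncertain.

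The Wnt pathway as a list lay near the level of all genes. Of 73 measured members 0 passed by limma, and 11 had an unadjusted p under 0.05, 5 lower and 6 higher, or 15.1% beside 8.68% of all genes. The median was -0.03 for A673 and 0.01 for SK-N-MC, and in A673 it was 0.05 with each array's median subtracted. By role, the 16 ligands had medians of -0.08 and 0.00, the 20 receptors 0.03 and 0.07, and the 12 secreted inhibitors, DKK2 among them, -0.04 and 0.03. The 13 intracellular members had medians of -0.06 and -0.13, and the 12 targets 0.00 and 0.01.

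Among the receptors, FZD8, a Frizzled receptor, stood at 5.98 with control, 6.64 with siDKK2 and 5.96 with siITM2A in A673, and at 5.41, 5.91 and 5.25 in SK-N-MC. Its siDKK2 value was the highest of each line, and the siITM2A values were at or below control. FZD6 went the other way, at 4.37 with control, 3.86 with siDKK2 and 4.27 with siITM2A in A673, and at 4.76, 4.13 and 4.88 in SK-N-MC. Each siDKK2 value of FZD6 was the lowest of its line. The co-receptor LRP5, which Dickkopf proteins bind, differed by 0.79 in A673 with siDKK2 and by 0.68 with siITM2A, and by -0.07 and -0.19 in SK-N-MC. Of the targets, SP5, a direct target of beta-catenin, stood at 3.93 with control and 4.37 with siDKK2 in A673, and at 4.05 and 4.60 in SK-N-MC. These SP5 values lie near the median gene level of 4.04. CD44, an adhesion receptor for hyaluronan, was 6.00 with control, 4.67 with siDKK2 and 5.91 with siITM2A in A673, and 3.26, 3.10 and 3.24 in SK-N-MC, where it was low on all 3 arrays.

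Of 27 invasion proteases and their inhibitors 19 were lower in A673, beside 57.1% of all genes, and 12 were lower in SK-N-MC, beside 51.2%. The medians were -0.21 and 0.03. On the control array 20 of the 27 stood at or above the median gene level in A673, and 9 did in SK-N-MC. Over those 9, the median was -0.10 for A673 and -0.07 for SK-N-MC, with 6 lower in A673 and 7 in SK-N-MC. None passed by limma, with 2 lower and 0 higher at an unadjusted p under 0.05, or 7.41% beside 8.68% of all genes. Those 2 were ADAM9 and ADAM10, a sheddase of Notch receptors, which stood at 8.21 with control, 7.63 with siDKK2 and 8.15 with siITM2A in A673 and at 7.48, 6.97 and 7.17 in SK-N-MC. ADAM10 was lowest with siDKK2 in each line, and the A673 siDKK2 value lay above all SK-N-MC values. The gelatinase MMP9 differed by -0.997 in A673 and by 0.47 in SK-N-MC with siDKK2, and by 0.13 and 1.46 with siITM2A. PLAT, the tissue plasminogen activator, differed by -0.74 and 0.29. In SK-N-MC MMP9 stood at 3.42 with control and 3.90 with siDKK2, and PLAT at 3.11 and 3.40, all under the median of genes.

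Of 23 genes of bone and osteolysis 16 were lower in A673 and 9 were lower in SK-N-MC, or 69.6% and 39.1%, beside 57.1% and 51.2% of all genes. None passed by limma, with 2 lower and 1 higher at an unadjusted p under 0.05, or 13% beside 8.68% of all genes. The list's medians were -0.09 and 0.01. With each array's median subtracted these medians were -0.02 and 0.00. CSF1, the growth factor of osteoclast precursors, stood at 6.26 with control, 5.40 with siDKK2 and 5.44 with siITM2A in A673, and at 4.97, 4.58 and 4.97 in SK-N-MC. In A673 both knock-downs were thus below control by a similar amount, and in SK-N-MC siDKK2 alone was lower. COL1A1, the main collagen chain of bone, was 7.21 with control, 6.24 with siDKK2 and 7.23 with siITM2A in A673, and 5.80, 6.07 and 5.99 in SK-N-MC. TGFB2 differed by -0.38 and -0.37 and the osteoblast factor SP7 by 0.36 and 0.51, all at levels under the median of genes.

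Line-specific differences were more frequent in A673. Outside the interferon list, 34 genes were at least 2-fold lower in A673 and within 1.2-fold of control in SK-N-MC (0.187% of 18226), and 6 were higher in this way (0.0329%). The reverse pattern, 2-fold in SK-N-MC and within 1.2-fold in A673, held for 5 lower and 5 higher genes (0.0274% each). No test of the difference between lines could be made with 1 array for each siRNA in a line. A further 5 genes were 1.5-fold higher in A673 and lower in SK-N-MC (0.0271% of all genes), and 10 were lower in A673 and higher in SK-N-MC (0.0543%). Among genes at or above the median level over all 6 arrays only, the counts of genes particular to 1 line were 19 for A673 and 1 for SK-N-MC. Some of these genes were low in the other line, where a fall could hardly show, such as HBEGF at 3.13 to 3.30 in SK-N-MC and SESN3 at 2.01 to 2.29 in A673. Differences over all genes, interferon genes included, also spread more widely in A673, with an SD of 0.315 beside 0.252 in SK-N-MC.

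The genes lower in A673 alone, and others that differed less in SK-N-MC, included inflammatory genes, many of which carry sites for the transcription factor NF-kB in their promoters. For 3 of them, the RefSeq promoter of a human assembly (GRCh38.p14) is shown around a match to GGAANTTCC, a motif that NF-kB binds, where N is any base. The motif was chosen after the values were seen and searched on both strands, on which it reads the same, over 250 bases before the gene start. Capitals mark the match in each window of 60 bases, read 5′ to 3′ on the plus strand, which is the strand of all 3 genes. The windows are chr19:10270909-10270968 for ICAM1, chr4:73740453-73740512 for CXCL8 and chr4:73869290-73869349 for CXCL1.
ICAM1: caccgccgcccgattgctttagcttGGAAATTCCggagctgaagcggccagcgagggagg
CXCL8: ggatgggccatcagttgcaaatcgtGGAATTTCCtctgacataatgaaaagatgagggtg
CXCL1: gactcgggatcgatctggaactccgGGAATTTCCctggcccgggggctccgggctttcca
The motif was found in 0.826% of 35116 promoters. The inflammatory list was drawn up for NF-kB and inflammatory genes. Of its 28 genes with a promoter entry, 8 held the motif, among them NFKB1, NFKBIA and REL, while CCL20 was not among the 8. Because the list was chosen for NF-kB and counts genes, not promoters, its count cannot be set against the share of all promoters. A match describes these letters only and shows no binding.

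The values of these genes differed by line. ICAM1, an adhesion molecule for leukocytes, was 8.03 with control, 6.48 with siDKK2 and 8.23 with siITM2A in A673, and 4.62, 4.38 and 4.87 in SK-N-MC. CXCL8, the chemokine interleukin-8, was 7.45, 6.25 and 7.18 in A673, in the same order of siRNAs, and 3.29, 3.53 and 2.93 in SK-N-MC. For ICAM1 and CXCL8 the siITM2A array of A673 stood near the control, and siDKK2 alone stood more than 2-fold below it. CCL20, a chemokine for cells with the receptor CCR6, was 5.62, 3.75 and 4.38 in A673 and 2.63, 2.44 and 2.57 in SK-N-MC. CXCL1, a neutrophil chemokine, was 4.01, 3.11 and 3.14 in A673 and 3.10, 2.69 and 2.92 in SK-N-MC. For CCL20 and CXCL1 the siITM2A array of A673 was thus also well below control, and in SK-N-MC ICAM1, CXCL8, CCL20 and CXCL1 were low or near the median of genes throughout.

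Over the whole inflammatory list, 32 of 33 measured genes were lower in A673, beside 57.1% of all genes, and 14 of 33 in SK-N-MC, beside 51.2%. The median was -0.40 for A673 and 0.00 for SK-N-MC with siDKK2, and -0.16 and -0.02 with siITM2A. None of the 33 passed by limma, with 7 lower and 0 higher at an unadjusted p under 0.05, or 21.2% beside 8.68% of all genes. In A673, 21 of the 33 stood at or above the median gene level on the control array, and in SK-N-MC 10 did. Over those 10, the median was -0.31 for A673 and -0.02 for SK-N-MC, with 9 lower in A673 and 6 in SK-N-MC. IL1A, interleukin-1 alpha, differed by -0.83 in A673 and by -0.39 in SK-N-MC, where it was at 1.76 to 2.15. SOD2, the mitochondrial superoxide dismutase, was 8.07 with control and 7.80 with siDKK2 in A673 and 7.92 and 7.36 in SK-N-MC, and so was lower by more in SK-N-MC. Interferon genes were lower on the same arrays, with list medians of -0.62 in A673 and of -0.13 in SK-N-MC; the part of that response in the inflammatory values was not tested. CD68, a lysosomal protein of macrophages, was 6.41 with control and 5.11 with siDKK2 in A673, while PTPRC, CD14 and ITGAM were under 2.7 on all arrays.

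Further genes lower in A673 alone were outside the inflammatory list. HBEGF, a ligand of the epidermal growth factor receptor, stood at 7.56 with control, 6.05 with siDKK2 and 7.38 with siITM2A in A673, and at 3.27, 3.13 and 3.30 in SK-N-MC. USP53, a protein of the ubiquitin protease family, stood at 6.97, 5.66 and 6.99 in A673 and at 4.37, 4.17 and 4.17 in SK-N-MC. In both genes siDKK2 alone was low in A673, and all SK-N-MC values were lower still. DTX2, a ubiquitin ligase of the Deltex family, differed by -1.20 with siDKK2 and -0.89 with siITM2A in A673, and SHISAL1 by -1.18 and 0.13. The genes higher in A673 alone were led by RNVU1-1, a U1 small nuclear RNA gene, at 1.11, MXRA8 at 1.04 and the histone gene H3C2 at 1.03. THY1, a surface glycoprotein of fibroblasts and neurons, stood at 7.78 with control, 8.75 with siDKK2 and 8.38 with siITM2A in A673, and at 3.00 to 3.21 in SK-N-MC. CDC27, a subunit of the anaphase-promoting complex, COG6 of the Golgi tethering complex, the histone gene H4C6 and LOC107987020 each differed by 0.96 in A673.

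**Figure D3:**
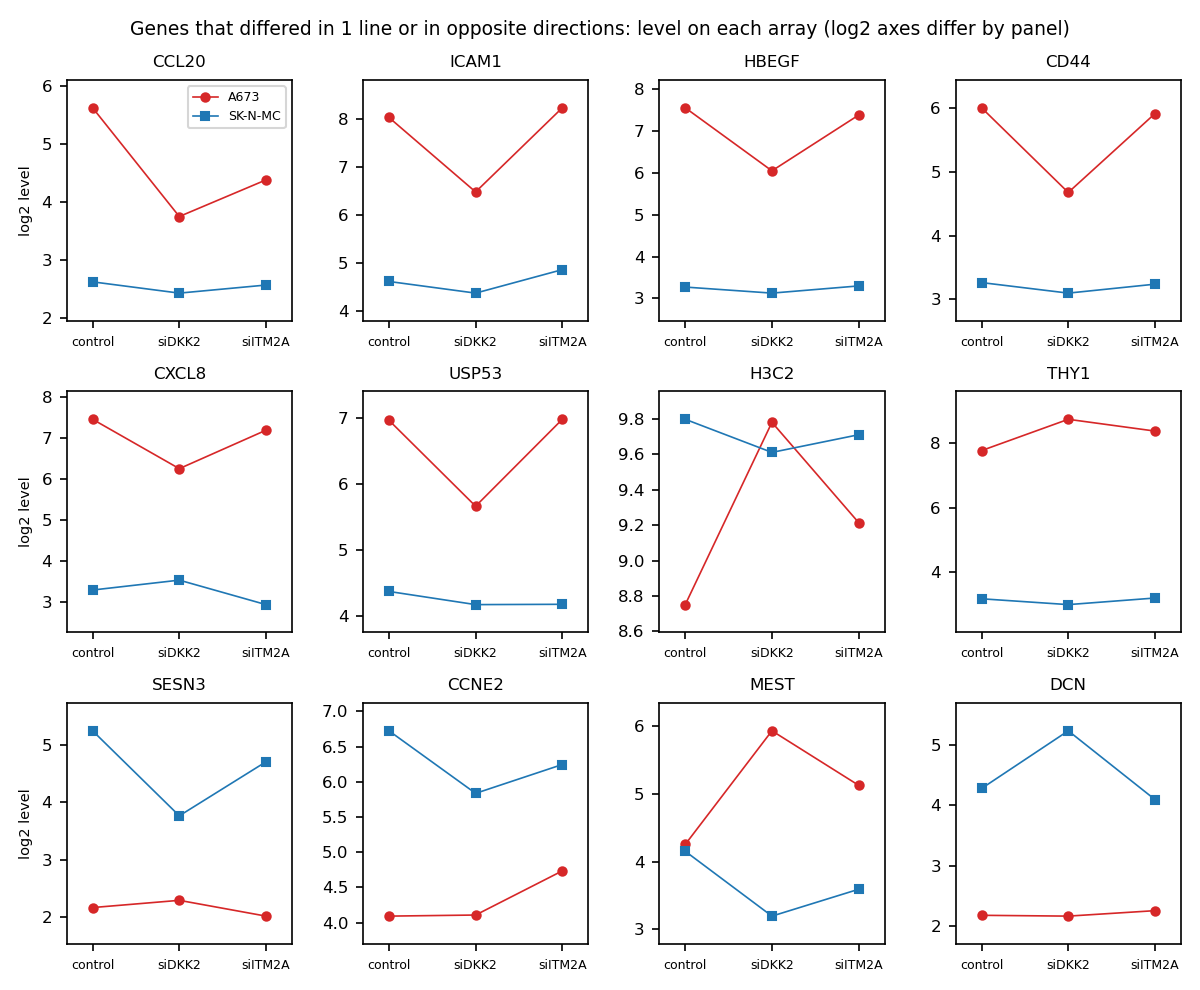
Log2 level on each of the 6 arrays for 12 genes whose siDKK2 and control values differed mainly in 1 line or in opposite directions; A673 is shown as red circles and SK-N-MC as blue squares, lines join the arrays of a cell line, and each panel has its own vertical axis. CCL20, ICAM1, HBEGF, CD44, CXCL8 and USP53 are low with siDKK2 in A673 and nearly level in SK-N-MC, SESN3 and CCNE2 are low with siDKK2 in SK-N-MC, and MEST is higher with siDKK2 in A673 and lower in SK-N-MC.

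For SK-N-MC, the genes farthest from control among those within 1.2-fold in A673 are named next, whether or not they reached 2-fold. Their mean level in SK-N-MC, not over all 6 arrays, was at or above the median of genes. SESN3, a stress-induced inhibitor of mTORC1, stood at 5.25 with control, 3.76 with siDKK2 and 4.71 with siITM2A in SK-N-MC, and at 2.01 to 2.29 in A673. CCNE2, cyclin E2, which drives entry into DNA synthesis, stood at 6.73, 5.84 and 6.25 in SK-N-MC and at 4.09, 4.11 and 4.73 in A673. For both genes siITM2A lay between siDKK2 and control in SK-N-MC. GABARAPL1, a protein of autophagosomes, was 5.75 with control, 4.82 with siDKK2 and 4.94 with siITM2A in SK-N-MC, and so was low with both knock-downs. ZNF483 differed by -1.45 in SK-N-MC, the mucin MUC1 by -1.08, GPR174 by -1.02, GK3 by -0.97 and LIN52, a subunit of the DREAM complex, by -0.95. The genes higher in SK-N-MC alone included DCN, the matrix proteoglycan decorin, which stood at 4.28 with control, 5.23 with siDKK2 and 4.09 with siITM2A there and at 2.16 to 2.25 in A673. IGSF3 and the dynein light chain DYNLT1 differed by 0.92 and 0.87 with siDKK2 and by 0.93 and 0.84 with siITM2A in SK-N-MC. KRTAP10-9, VASN, SBK1, RAPGEFL1 and KRT10-AS1 differed by 0.79 to 1.13 there.

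Among genes of cell division, the lists of DNA replication and mitosis had medians above 0 in A673 and below 0 in SK-N-MC. Of 39 genes of DNA replication 32 were higher in A673, beside 42.8% of all genes, and 31 were lower in SK-N-MC, beside 51.2%; the medians were 0.17 and -0.16. With siITM2A the medians of the same genes were -0.02 and -0.27. MCM2, a subunit of the replicative helicase, stood at 7.38 with control and 7.99 with siDKK2 in A673 and at 7.93 and 8.16 in SK-N-MC, and so was higher in both lines. PRIM1, the primase subunit, stood at 7.65 with control and 7.70 with siDKK2 in A673 and at 7.80 and 7.19 in SK-N-MC. Of 34 mitosis genes 20 were higher in A673 and 31 were lower in SK-N-MC, with medians of 0.07 and -0.22, and of 0.05 and -0.19 with siITM2A. Of these 34, 17 were higher in A673 and lower in SK-N-MC, beside 19.6% of all genes. A further 14 were lower in both lines, beside 31.6%, and 3 were higher in both, beside 23.2%. Of the 39 replication genes, 24 were higher in A673 and lower in SK-N-MC, beside the same 19.6%. MAD2L1, of the spindle checkpoint, stood at 7.84 with control, 7.53 with siDKK2 and 7.88 with siITM2A in A673 and at 8.02, 7.14 and 7.92 in SK-N-MC. MAD2L1 was thus lowest with siDKK2 in each line. None of the 39 and none of the 34 passed by limma. At an unadjusted p under 0.05 there were 2 and 1, or 5.13% and 2.94%, beside 8.68% of all genes.

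Histone genes, which are transcribed mainly during DNA synthesis, were higher in A673 in 42 of 48 cases, beside 42.8% of all genes, and higher in SK-N-MC in 24, beside 48.6%. Their medians were 0.36 for A673 and -0.01 for SK-N-MC with siDKK2, and 0.11 and 0.00 with siITM2A. None passed by limma, with 0 lower and 8 higher at an unadjusted p under 0.05, or 16.7% beside 8.68% of all genes. H3C2 stood at 8.75 with control, 9.78 with siDKK2 and 9.21 with siITM2A in A673, and at 9.80, 9.61 and 9.71 in SK-N-MC. In A673 its siDKK2 array was the highest and reached the level of SK-N-MC, where the 3 arrays lay close together. H2BC9 was 8.32 with control, 9.24 with siDKK2 and 8.99 with siITM2A in A673, and 6.11, 6.61 and 6.93 in SK-N-MC. The linker histone H1-3 stood at 6.82 with control, 7.16 with siDKK2 and 6.68 with siITM2A in A673, and at 3.32, 4.92 and 4.71 in SK-N-MC, where both knock-downs lay above control. Histone genes have near-identical copies, so a probe set can take signal from several of them and single members are uncertain.

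Of 30 collagen genes 24 were lower in A673, beside 57.1% of all genes, and 24 were higher in SK-N-MC, beside 48.6%. The medians were -0.14 and 0.09 with siDKK2, and -0.13 and 0.06 with siITM2A, and these comparisons share their controls. None passed by limma, and 0 had an unadjusted p under 0.05, beside 8.68% of all genes. COL7A1, the anchoring fibril collagen, differed by -0.59 and 0.14, and COL27A1 by -0.27 and -0.28. Cytosolic ribosomal protein genes were higher in both lines in 35 of 56 cases, beside 23.2% of all genes, with medians of 0.10 and 0.11 with siDKK2 and -0.05 and 0.08 with siITM2A. None passed by limma, with 1 lower and 5 higher at an unadjusted p under 0.05, or 10.7% beside 8.68% of all genes. RPL13 stood at 8.89 with control, 9.41 with siDKK2 and 9.25 with siITM2A in A673, and at 9.06, 9.38 and 9.25 in SK-N-MC. The siDKK2 array was the highest of each line for RPL13, and ribosomal protein genes too have many near-identical pseudogene copies.

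**Figure D4:**
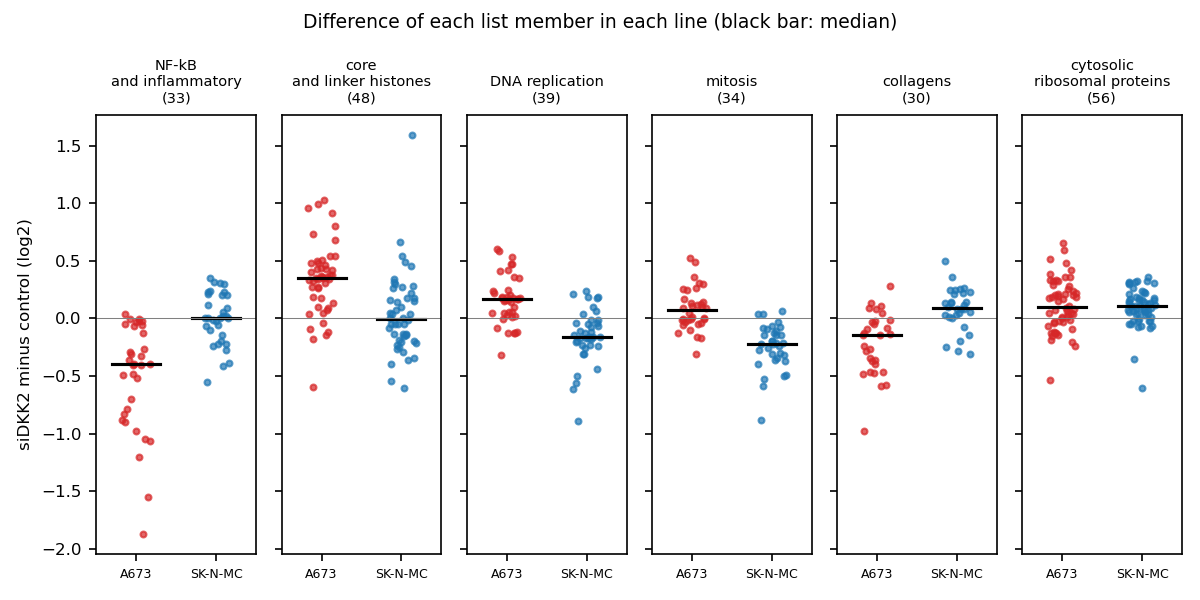
Each point is a member of 1 of 6 gene lists, with its siDKK2 minus control difference (log2) on the vertical axis for A673 (red) and SK-N-MC (blue); black bars are medians and numbers in brackets count the measured members. Inflammatory genes extend downward in A673 and centre on 0.00 in SK-N-MC, histone and replication genes centre above 0 in A673, and ribosomal protein genes have medians of 0.10 and 0.11.

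Immediate early genes, which growth factor signals induce within minutes, were listed together with genes of ERK feedback, and the 36 genes of both kinds had a median of -0.01 in either line. For the 21 immediate early genes alone the A673 median was -0.15 and the SK-N-MC median 0.03; for the 15 of ERK feedback they were 0.07 and -0.13. EGR1, a zinc finger transcription factor, was 7.57 with control, 6.30 with siDKK2 and 6.89 with siITM2A in A673, and 4.14, 3.51 and 3.71 in SK-N-MC. JUN, a subunit of AP-1, was 6.58, 5.95 and 6.39 in A673 and 6.00, 5.52 and 5.94 in SK-N-MC. EGR1 and JUN were lowest with siDKK2 in each line, and siITM2A lay between it and the control. IER3 differed by -0.99 in A673 and by 0.09 in SK-N-MC on the probe set used, and by -0.66 and 0.52 on its other probe sets. The ERK phosphatase DUSP6 differed by 0.11 and -0.85. In SK-N-MC DUSP6 stood at 3.64 with control and 2.79 with siDKK2, under the median of genes. None of the 36 passed by limma, with 6 lower and 2 higher at an unadjusted p under 0.05, or 22.2% beside 8.68% of all genes.

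Of 26 targets of YAP/TAZ and TGF-beta 19 were lower in A673, beside 57.1% of all genes, and 13 were lower in SK-N-MC, beside 51.2%. The medians were -0.20 and -0.02. None passed by limma, with 4 lower and 1 higher at an unadjusted p under 0.05, or 19.2% beside 8.68% of all genes. CCN1, a matricellular protein and YAP target, was 6.37 with control, 5.29 with siDKK2 and 5.84 with siITM2A in A673, and 4.30, 3.89 and 4.31 in SK-N-MC. In A673 siITM2A lay between the other arrays of CCN1, and in SK-N-MC it equalled the control to within 0.01. NT5E, the surface enzyme CD73, differed by -0.77 in A673 and by 0.38 in SK-N-MC. In SK-N-MC NT5E was low, at 2.44 with control and 2.81 with siDKK2. In the list of adhesion genes and factors of epithelial-mesenchymal transition, ITGAV, the integrin alpha-V chain, was 7.85 with control, 7.24 with siDKK2 and 7.57 with siITM2A in A673, and 6.61, 5.75 and 6.40 in SK-N-MC. ITGAV was lowest with siDKK2 in each line and was the 1 of 31 genes of that list at least 1.5-fold lower in both. ITGA3 differed by -1.15 and 0.09, and in SK-N-MC it lay under the median of genes, at 3.17 to 3.32. The list's medians were -0.03 in both lines, and 0 of 31 passed by limma. At an unadjusted p under 0.05, 2 were lower and 1 higher, or 9.68% beside 8.68% of all genes.

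Of 44 targets of the Ewing fusion, the 31 that the fusion activates had medians of 0.09 in A673 and of -0.06 in SK-N-MC. Of these 31, 21 were higher in A673, beside 42.8% of all genes, and 12 were higher in SK-N-MC, beside 48.6%. The 13 that the fusion represses had medians of -0.29 and -0.15, with 10 lower in A673, beside 57.1% of all genes, and 7 lower in SK-N-MC, beside 51.2%. Of the 44, 0 passed by limma, with 3 lower and 1 higher at an unadjusted p under 0.05, or 9.09% beside 8.68% of all genes. LOX, the collagen cross-linking enzyme and a repressed target, was 4.51 with control and 4.01 with siDKK2 in A673 and 4.60 and 5.54 in SK-N-MC. STEAP1, an activated target, was 6.63 with control, 5.65 with siDKK2 and 5.88 with siITM2A in A673, and 7.41, 7.19 and 7.29 in SK-N-MC. In A673 both knock-downs of STEAP1 lay below control, and in SK-N-MC the 3 arrays were close. CAV1, another activated target, differed by 0.70 and 0.26 with siDKK2.

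Among 40 genes of amino acid and endoplasmic reticulum stress, CHAC1, which degrades glutathione, was 4.52 with control, 3.73 with siDKK2 and 4.56 with siITM2A in A673, and 4.10, 3.61 and 4.17 in SK-N-MC, and so was lowest with siDKK2 in each line. The list's medians were -0.08 and -0.03, and 0 of 40 passed by limma. At an unadjusted p under 0.05, 2 were lower and 1 higher, or 7.5% beside 8.68% of all genes. GADD45A, a p53 target of the DNA damage response, was 6.84 with control, 6.34 with siDKK2 and 6.73 with siITM2A in A673, and 5.24, 4.71 and 5.56 in SK-N-MC. The 25 p53 targets had medians of -0.04 and -0.09, with 0 past the threshold by limma. At an unadjusted p under 0.05, 3 were lower and 0 higher, or 12% beside 8.68% of all genes. In fatty acid synthesis, with 14 genes and medians of 0.04 and -0.11, GPAM, the first enzyme of triglyceride synthesis, was 4.97 with control and 5.46 with siDKK2 in A673 and 5.40 and 4.36 in SK-N-MC, and so stood on opposite sides of control in the lines. Of these 14 genes 0 passed by limma, with 1 lower and 0 higher at an unadjusted p under 0.05, or 7.14% beside 8.68% of all genes. With each array's median subtracted, the A673 medians that lay just under 0 turned positive for the joint list of 36 immediate early and ERK feedback genes (0.06), the adhesion list (0.04), the p53 targets (0.03) and the genes of lysosomes and autophagy (0.02).

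**Figure D5:**
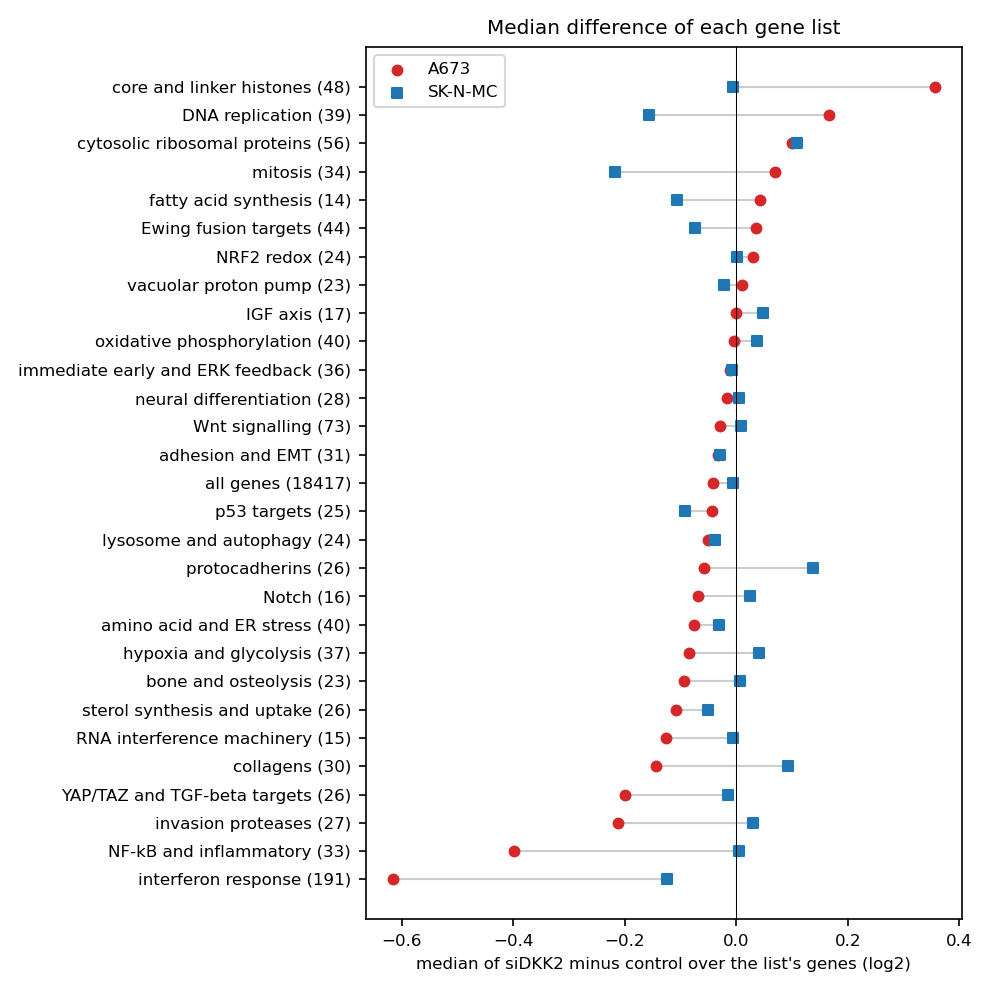
Median siDKK2 minus control difference (log2) over the measured members of each gene list and over all genes, with A673 as red circles and SK-N-MC as blue squares; numbers in brackets count the genes. Outside the interferon list, the lists farthest from 0 are the inflammatory genes at -0.40 and the histone genes at 0.36, both in A673, while DNA replication and mitosis lie below 0 in SK-N-MC.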

How the data were processed

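Total RNA from A673 and SK-N-MC cells was hybridised to Affymetrix whole-transcript arrays, 1 per line and siRNA. The deposited values are log2 levels per probe set made with RMA in Affymetrix Expression Console, per the submitters' processing notes; the log2 scale was read from the values' range of 1.02 to 13.4. RMA compresses differences of dim probe sets. Which version, settings and genome build were used is not given in the sources used here. Without scanner files signal over background was not measured.

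Of 33297 probe sets, 19460 had 1 gene symbol in the platform annotation, which can be old, 1754 had several and 12083 were not listed; the brightest probe set was kept for each of 18417 genes. limma 3.58.1 (R 4.3.3, lmFit and eBayes) was fitted to all 6 arrays with siRNA and line as terms, leaving 2 residual degrees of freedom (8.28 after moderation), and Benjamini-Hochberg adjusted over all genes. Same-line arrays are pairs, per the labels. The labels name no repeat cultures. The fit was tested on simulated data.

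The gene groups and lists, 93 of whose genes were not analysed here, were chosen with earlier results of these data known. Named were DKK2, ANKRD46, ATP6V1D and IRF9; 15 lower and 15 higher genes, ranked by the smaller of their differences in the lines; 8 per line and direction; up to 4 members per list and 2 by the lines' difference; and the genes beyond both other siRNAs. ID1, ID3, OIP5, CD14 and PTPRC were named after their values were seen.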

Additional observations from a re-analysis of the deposited data

Results flagged for a closer look

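In 11 genes outside the interferon list, at or above the median gene level, siDKK2 stood at least 1.5-fold from control in opposite directions in the 2 lines; this contrast of the lines was not tested, there being 1 array for each siRNA in a line. Over all levels there were 15 such genes, 5 higher in A673 and 10 lower there, or 0.0271% and 0.0543% of all genes. Of the 11, MEST, an imprinted gene of the hydrolase fold family, had the largest contrast between the lines, differing by 1.68 in A673 and by -0.96 in SK-N-MC. Its log2 level was 4.26 with control, 5.93 with siDKK2 and 5.13 with siITM2A in A673, and 4.16, 3.20 and 3.59 in SK-N-MC, so siITM2A lay between the other arrays in both lines. CYRIA, a regulator of actin, differed by 0.59 and -0.60, and NUDT11, a phosphohydrolase of inositol phosphates, by 0.59 and -0.59.

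The other 8 were lower in A673 and higher in SK-N-MC. CCDC85C differed by -1.19 and 0.66, and the long non-coding RNA LINC00917 by -0.73 and 1.04. The amine oxidase AOC3 differed by -0.82 and 0.80, the serpin SERPINB8 by -0.78 and 0.62, and OGFRL1 by -0.69 and 0.60. TFAP2A, a transcription factor of the neural crest, differed by -0.68 and 0.59, the endocytic adaptor DAB2 by -0.66 and 0.67, and TMEM171 by -0.61 and 0.73.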

How the results depend on the processing

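With the line as a block, 2 genes passed the threshold. Without the replicate block the fit called 0 (322 at an unadjusted p under 0.05), and ANKRD46 and ATP6V1D had adjusted p of 0.639 and 1.00; with only the 4 control and siDKK2 arrays it called 0 (1433), and with an intensity trend 7. DKK2 passed under the trend, at -1.21 (adjusted p = 0.0254), and without 1 array lay between -1.50 and -0.92. Leaving out 1 array gave 0 to 60 genes: 0 without the A673 siDKK2 array (1114 unadjusted) or either siITM2A array (1433 each), 45 without the control of SK-N-MC and 60 without siDKK2 of SK-N-MC. Where an arm kept 1 array, it was assumed to vary like the others.

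The 19 genes below both other arrays became 27 or 34 when siITM2A of A673 or of SK-N-MC was left out. The 1 gene above both became 0 with the mean of a gene's probe sets, and 2 to 4 without a siITM2A array. Among genes at or above the median level, the 40 genes particular to A673 became 19 and the 10 of SK-N-MC became 1. IGKC reversed with the mean of its probe sets, to -0.066 (limma, adjusted p = 0.956). Counts in both lines have no value without a control or siDKK2 array.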
